A study of Gallus gallus with 4 samples.

Results

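The sex chromosomes of the chicken were read in liver RNA through a list of 46 genes, the W-linked HINTW and 45 genes listed as Z-linked. The genes were chosen by name and chromosome, and a probe was assigned to a gene through the RefSeq accession that the array files give for it. Of the 46 genes, 25 were found on the array in this way, with 77 probes, out of 5382 named genes and 43603 probes in all. A probe was kept if the scanner software marked it well above background on each of the 2 arrays of a group, whichever group that was. This left 23 of the listed genes, HINTW and 22 Z-linked genes, with 69 probes. FGF10, a growth factor, and TYRP1, a pigment enzyme, had no kept probe. The other 21 listed genes, among them HINT1, NIPBL, RASA1, NNT, MEF2C and LOX, were not matched by accession and are not analysed here.

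Liver came from coloured broilers of 35 days in 2 groups that differ in feed efficiency, 2 one-colour Agilent arrays each. Group 1 is labelled high and group 2 low, and the labels use these words both for feed efficiency and for residual feed intake, the feed a bird eats beyond what its size and growth predict, so the groups keep their numbers here. All birds shared an individually caged feeding trial of 35 days with free feed and water, and starter feed for 4 weeks. The design text gives 4 to 5 birds per group, pooled RNA and a pool divided in duplicate. The spread between the arrays of group 1 may thus be technical. The labels of the group 2 arrays differ in sex, and HINTW differed far more between them than between the group 1 arrays. The group 2 arrays are therefore not read as parts of 1 pool.

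Female birds carry a Z and a W chromosome and male birds carry a pair of Z chromosomes. Birds have no chromosome-wide silencing of Z in males, and many Z-linked genes are expressed at a higher level in males, with a ratio that differs from gene to gene. The W chromosome holds few genes, most of them with a partner on Z. HINTW is present there in many copies, is used to tell the sexes apart, and is transcribed in females only. The labels name both birds as female on 3 of the arrays, and 1 male and 1 female on group 2 replicate 2. By these labels a bird had on average 1.5 copies of Z and 0.5 copies of W on group 2 replicate 2, and 1 copy of each on the other 3 arrays. On a log2 scale 1.5 copies against 1 is a difference of 0.58, and 2 copies against 1 a difference of 1.

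The arrays went against these labels, and this bears on every value below. HINTW was low on the array labelled group 2 replicate 1, whose label names females only, and near the level of group 1 on the array labelled group 2 replicate 2. The library labelled group 2 replicate 1 is therefore given with its label throughout, and results for the members that rest on it are also given without it. All 4 arrays lay on 1 slide in the order of the groups, so a position effect and a group effect cannot be told apart. Signals well above background made up 72.3% to 80.2% of probes on an array. Arrays correlated at r = 0.989 in group 1, 0.966 in group 2 and 0.931 to 0.946 between groups. Levels are log2 of the processed intensity minus the 75th percentile of the array, so that 0 is a bright probe and -6 is close to background.

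Liver markers were at high levels on each array. Of 14 hepatocyte markers 12 were on the array and 11 had a brightest probe well above background on all 4 arrays, with a summed level, in units of the 75th percentile, of 1290 and 1771 in group 1 and 1366 and 1686 in group 2. Of these 11, 2 were called lower in group 1 and 0 higher (limma), and their median difference was -0.34 (group 1 minus group 2). CPS1 had no kept probe. Lists for other cell types held genes called higher in group 1. A gene was called where any kept probe passed, and over all named genes 9.03% were called higher and 6.83% lower. The summed level of 7 erythroid markers was 366 and 302 on replicates 1 and 2 of group 1, 40.1 on group 2 replicate 1 and 139 on group 2 replicate 2, and 3 of the 7 were called higher in group 1. RHAG, among these 3, was not well above background on group 2 replicate 1. It passed the filter on dim signals through group 1 alone, so nothing is drawn from its call. The 7 endothelial and stellate cell markers summed to 25.4 and 28.6 in group 1 and to 6.96 and 8.17 in group 2, with 6 called higher. The 7 leukocyte markers summed to 161 and 183 against 55.9 and 79.5, with 3 called higher. The 8 intestinal markers summed to 250 and 324 in group 1 and to 253 and 272 in group 2, most of it APOA4, which liver also makes. Of these 8, 7 were called higher, and the probe with the highest signal was well above background on all 4 arrays for 4 of the 8. CDH17, CDX2, FABP2 and RBP2 were not well above background on either group 2 array. They passed the filter on dim signals through group 1 alone, so nothing is drawn from their calls. On replicates 1 and 2 of group 1 RBP2 was at log2 levels of 2.03 and 1.82 and FABP2 at 0.90 and 0.83. CDX2 was at -0.79 and -0.68 there, and CDH17 at -3.54 and -3.02. GUCA2B was at 0.99 and 0.80 in group 1 and at -2.94 and -3.96 in group 2. Of 5 gonad markers 4 were measured, with a sum of 0.91 and 1.20 in group 1 and 0.67 and 0.70 in group 2, and 1 was called higher. In pooled tissue, fewer cells of a type and less RNA per cell cannot be told apart. Their part in the results below was not tested.

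HINTW encodes a member of the histidine triad protein family that has changed strongly from its Z-linked relative. Its 8 probes were at their lowest on group 2 replicate 1, all 8 of them. The probe with the highest signal, A_87_P060491, was at 6.63 and 6.54 on replicates 1 and 2 of group 1, at 5.34 on group 2 replicate 1 and at 6.55 on group 2 replicate 2. It differed least, and was 2.38-fold below the mean of group 1 on that array. The probe A_87_P060566 was at 6.10 and 5.89 in group 1, at -2.75 on group 2 replicate 1 and at 5.90 on group 2 replicate 2. The probe A_87_P060451 was at 6.43 and 6.27 in group 1, at -3.81 on group 2 replicate 1 and at 5.94 on group 2 replicate 2. A_87_P060566 and A_87_P060451 thus stood among the brightest of the array on 3 arrays and far below the 75th percentile on the remaining array. The probe A_87_P060441 was at 1.85 and 1.84 in group 1 and at 1.15 on group 2 replicate 2, and it was not well above background on group 2 replicate 1.

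Against the mean of the group 1 arrays, HINTW was lower on group 2 replicate 1 by more than 8 log2 units for 5 of 8 probes, and the probe A_87_P060491 was the only one within 6 units. The median over the probes against the mean of the other 3 arrays was -8.92 there, with the dim probe at its bound, and 3.40, 3.17 and 2.84 on the other arrays. On group 2 replicate 2 the probes lay between -0.69 and 0.06 of the group 1 mean. The probe with the lowest signal was at 61.8% of group 1 there and the probe A_87_P060466 at 104%. The arrays of group 1 differed by at most 0.31 for any of the 8 probes. Between the groups 0 of 8 probes passed the test (limma, smallest adjusted p = 0.275), and before adjustment none was under 0.05 either. With group 2 replicate 2 left out, all 8 probes were called higher in group 1, with adjusted p from 0.00761 to 0.0256 in limma. Without group 2 replicate 1 none was called, and the probes differed by -0.06 to 0.69.

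**Figure D1:**
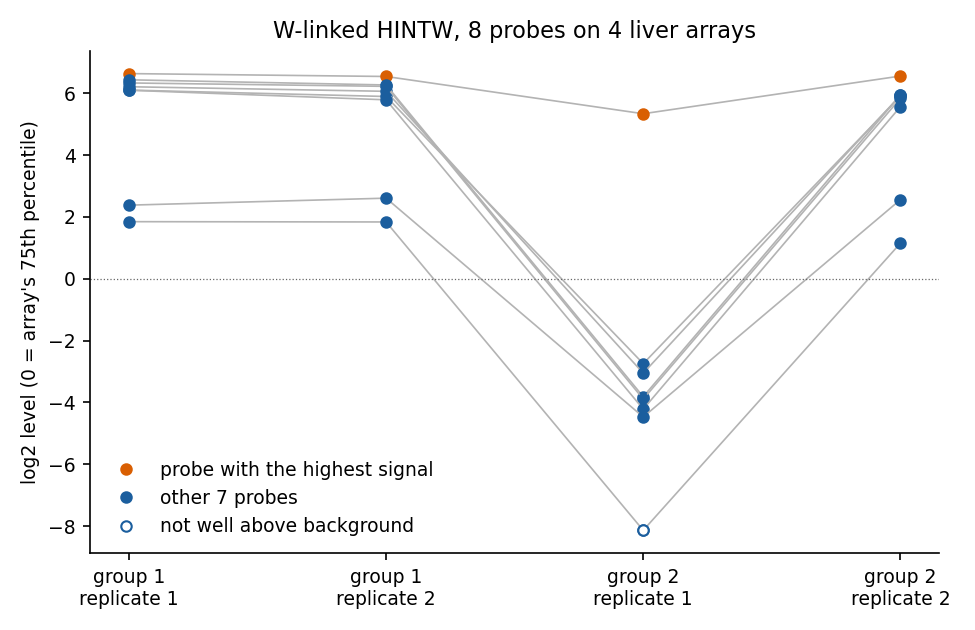
Log2 level (0 is the 75th percentile of the array) of the 8 HINTW probes on the 4 arrays. Each point is 1 probe on 1 array and lines join a probe. On group 2 replicate 1, 7 probes lie between -8.14 and -2.75, and the probe with the highest signal is at 5.34.

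Other W-linked genes gave mixed readings. The gene table lists W-linked entries under other names, and 8 such genes had a kept probe. HINTWL2 (LOC100857579 in the table), a further copy of HINTW, had 2 of its 3 probes not well above background on group 2 replicate 1, at -6.70 and -7.33 or below against the mean of the other 3 arrays, while the third probe was at -1.10. UBAP2L2, the W-linked partner of UBAP2, was at 0.419 times the other arrays there and ENS-1 at 0.362 times. SPIN1L, the W-linked partner of the chromatin reader SPIN1, had probes at -0.15 and -0.12 on that array and a probe that was not well above background there, at -4.84 or below. All probes of these 4 genes lay below 0 there. LOC427025, a W-linked entry that the table also names NIPBL, had 7 probes between -0.66 and 0.78 there and 1 that was not well above background, at -3.01 or below, with a median of 0.11 over the 8. HNRNPKL, which binds RNA, was at 0.66. MBD2, which binds methylated DNA, was at 0.40 in the median over 2 probes that disagreed, at 0.91 and -0.11. SMAD7B was at -0.17 on 1 kept probe, which was dim there, at a level of -5.46. The W-linked entries thus differed in direction on that array, and none had a probe called between the groups. Whether a probe also binds the transcript of the Z-linked partner was not tested.

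The Z-linked members were read on each array against the mean of the other 3, with the median over a gene's kept probes. On group 2 replicate 1 the median over the 22 members was 0.19 log2 units, with 14 members above 0, while 46.6% of autosomal genes lay above 0 and their median was -0.05. The members' median on group 2 replicate 2 was -0.19, with 8 above 0 against 45.6% of autosomal genes. On replicates 1 and 2 of group 1 the medians were 0.05 and -0.11, with 11 and 10 members above 0 against 56.3% and 54.8% of autosomal genes. The members were thus highest, in the median, on the array with the least HINTW. At least 0.32 log2 units above the other arrays stood 10 members on group 2 replicate 1, where the autosomal share was 25.1%, and 3 on group 2 replicate 2, where it was 21.8%. The counts on replicates 1 and 2 of group 1 were 6 and 3, against autosomal shares of 31.9% and 26%. At least as far below stood 5 and 6 members on the group 2 arrays, against 31.1% and 29.1% of autosomal genes, and 6 and 7 on the group 1 arrays, against 22.4% and 17.6%. At a limit of 0.58 log2 units 5 members stood above on group 2 replicate 1, against 13.3% of autosomal genes, and 2 on each of the other arrays, against 18.5%, 13.2% and 10.9%. PTCH1 and PRLR are among the members below on the group 2 arrays and above on the group 1 arrays. The PTCH1 probe and the PRLR probes A_87_P091776 and A_87_P129148 passed the filter on dim signals through group 1 alone. Nothing is drawn from the place of PTCH1 and PRLR in these counts. As 1 array stands against 3, these are descriptions without a test.

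**Figure D2:**
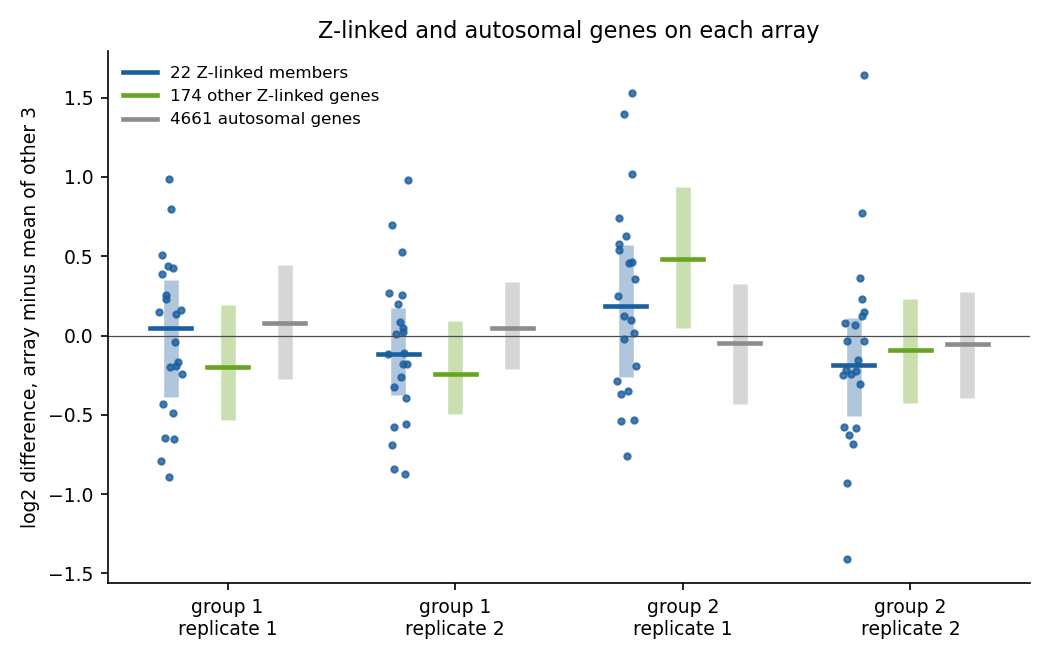
Log2 difference of each array from the mean of the other 3 for the 22 Z-linked members (blue points), 174 other Z-linked genes and 4661 autosomal genes. Bars span the quartiles and lines mark the medians. The Z-linked medians on group 2 replicate 1 are 0.19 and 0.48, and the autosomal median there is -0.05.

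Counted over probes, group 2 replicate 1 was the highest of the 4 arrays for 33 of 61 kept probes of the Z-linked members (54.1%), for 59.2% of the probes of other Z-linked genes and for 27.2% of autosomal probes. Group 2 replicate 2 was highest for 7 of the 61 and lowest for 24. For 15 members with more than 1 kept probe, all probes had the same sign on group 2 replicate 1 for 10 of them, 7 above and 3 below 0. The same held for 10 and 12 of the 15 on replicates 1 and 2 of group 1 and for 7 on group 2 replicate 2. Such agreement was thus not particular to group 2 replicate 1.

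The difference on group 2 replicate 1 varied with the level of the gene. Named genes were split into 3 equal classes by the mean level of their probe with the highest signal over the 4 arrays. All 6 members of the class with the highest level were above 0 on group 2 replicate 1, with a median of 0.58, against 0.02 for the autosomal genes of that class. In the middle class the median of 8 members was 0.41, against 0.03. In the class with the lowest level the median of 8 members was -0.24, against -0.27 for autosomal genes, so that the dim members and dim autosomal genes had like medians. The other Z-linked genes had medians of 0.49, 0.67 and 0.05 in the same order of classes. The lowest class held PTCH1, NTRK2, LMNB1, DMRT1, VCAN, PRLR, RAD17 and VLDLR. The PTCH1 probe and the PRLR probes A_87_P091776 and A_87_P129148 passed the filter on dim signals through group 1 alone. The filter thus favours low values on the group 2 arrays for such probes, and nothing is drawn from the median of this class.

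The comparison with group 1 alone avoids setting the group 2 arrays against each other. The arrays of group 1 differed by at most 0.25 log2 units for any Z-linked member. Group 2 replicate 1 lay above the group 1 mean by more than that for 12 of 22 members, below it for 6 and within it for 4, beside 31.4% of autosomal genes above and 40.2% below by the same limit. Group 2 replicate 2 lay above for 8, below for 9 and within for 5, beside 29.6% and 40% of autosomal genes. The median difference from group 1 was 0.34 on group 2 replicate 1, against -0.08 for autosomal genes, and -0.10 on group 2 replicate 2, equal to the autosomal -0.10. Of the 22 members, 15 were higher on group 2 replicate 1 than on group 2 replicate 2, where 50.4% of autosomal genes were. Both group 2 arrays lay beyond that limit on the same side for 8 members above and 6 below, beside 21.8% and 29.4% of autosomal genes. PTCH1 and PRLR are among the members below on both arrays. The PTCH1 probe and some PRLR probes passed the filter on dim signals through group 1 alone, so nothing is drawn from their place in these counts.

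**Figure D3:**
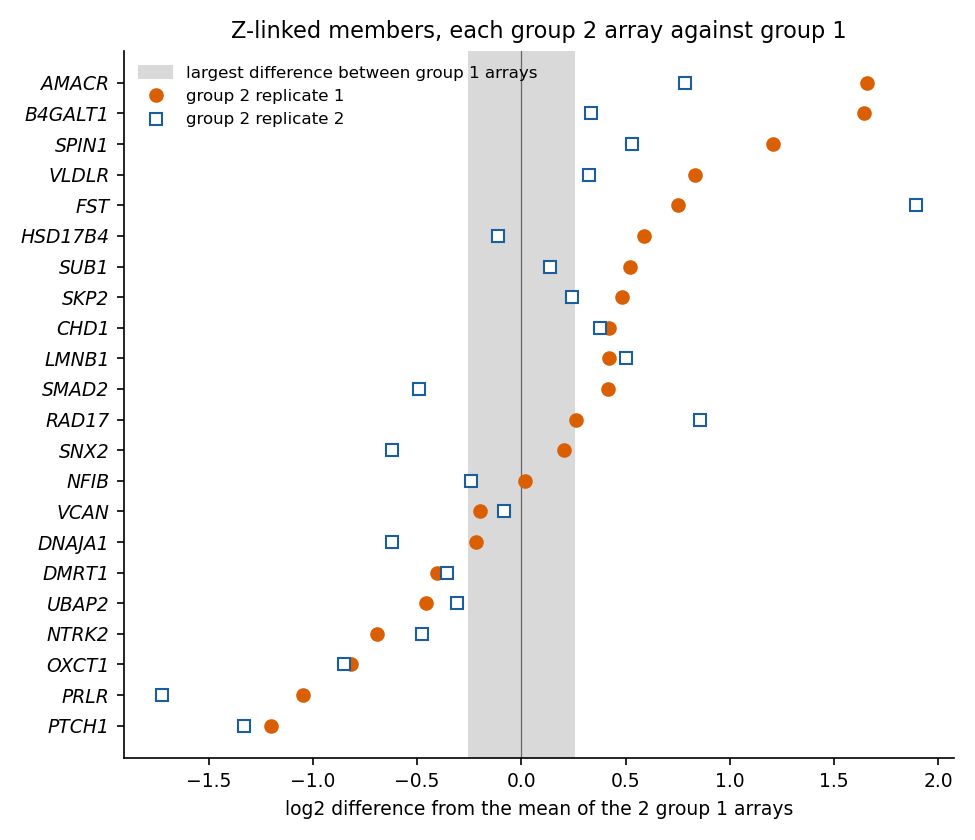
Log2 difference from the mean of the 2 group 1 arrays for each Z-linked member, on group 2 replicate 1 (filled circles) and group 2 replicate 2 (open squares). The shaded band spans the largest difference between the group 1 arrays, 0.25. AMACR, B4GALT1 and SPIN1 exceed 1 on group 2 replicate 1, and FST is higher on group 2 replicate 2.

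Members with a W-linked partner in the gene table were CHD1, SPIN1 and UBAP2, and they differed among themselves. SPIN1, a reader of histone marks, had its highest value on group 2 replicate 1 for all 6 probes, with a median of 1.21 above group 1, or 2.31-fold, and 0.53 on group 2 replicate 2. Its probe with the highest signal was at 0.11 and -0.07 on the group 1 arrays and at 1.28 and 1.22 on the group 2 arrays, so the groups did not overlap on this probe. They overlapped on its probes A_87_P092736 and A_87_P242268. CHD1, a chromatin remodeller whose length difference between Z and W copies is used to sex birds, had 7 probes from -0.42 to 1.13 on group 2 replicate 1 against the other arrays. Its probe A_87_P092929 was at -3.26 and -3.23 in group 1 and at -1.75 and -2.14 in group 2, while the probe A_87_P120393 was at -1.27 and -1.39 against -1.73 and -2.43. The probes of CHD1 therefore disagreed in direction. UBAP2, which binds ubiquitin, was at 1.17, 1.15, 1.01 and 0.74 in array order and stood lower on both group 2 arrays, by 0.46 and 0.31 in the median over its 2 probes. Of the listed HINT1 no probe was matched. A Z-linked entry that the table calls HINT2, and also HINTZ and PKCIZ, had 2 probes, at 0.73 and 0.86 on group 2 replicate 1 against the other arrays and at -0.05 and 0.08 on group 2 replicate 2.

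Among receptors and signalling members, VLDLR, the receptor that carries very low density lipoprotein and yolk precursors into cells, was at -1.63 and -1.83 in group 1, at -0.94 on group 2 replicate 1 and at -1.41 on group 2 replicate 2. All 3 of its probes were highest on group 2 replicate 1, with a median 1.78-fold above group 1. PRLR, the prolactin receptor, had its probe with the highest signal at -1.46 on both group 1 arrays and at -2.60 and -3.69 in group 2. Of its other 3 kept probes, A_87_P091771 overlapped between the groups (-4.37, -4.09, -5.25 and -4.13), A_87_P129148 was not well above background on group 2 replicate 2, and A_87_P091776 on neither group 2 array. PTCH1, the hedgehog receptor, had 1 kept probe, at -5.28 and -5.50 in group 1 and not well above background on either group 2 array. NTRK2, a neurotrophin receptor, was dim at -4.28, -4.46, -5.07 and -4.85. A further PTCH1 probe that was not kept gave overlapping groups. FST, or follistatin, which binds and blocks activin, was at 0.67 and 0.86 in group 1, at 1.83 on group 2 replicate 1 and at 2.76 on group 2 replicate 2. It was the member that exceeded group 1 most on group 2 replicate 2, at 3.72-fold.

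Among enzymes, AMACR, which converts branched-chain fatty acids and bile acid intermediates for oxidation in peroxisomes, was at 1.98 and 1.94 in group 1, at 3.62 on group 2 replicate 1 and at 2.74 on group 2 replicate 2. B4GALT1, a galactosyltransferase of the Golgi, was at 2.06, 2.04, 3.69 and 2.38, and its 3 probes stood 1.51 to 1.61 above the other arrays on group 2 replicate 1. Both were more than 3-fold above group 1 on that array, 3.16-fold for AMACR and 3.12-fold for B4GALT1, a log2 difference of 1.66 and 1.64 beside the 1 of a doubled copy number. HSD17B4, a peroxisomal enzyme of the same oxidation route, was at 5.47, 5.41, 5.83 and 5.16, and both of its probes were highest on group 2 replicate 1, with a median of 0.59 log2 units over group 1. OXCT1, which starts the breakdown of ketone bodies, had its probe with the highest signal at 0.12 and 0.07 in group 1 against -0.72 and -0.75 in group 2. Its 3 probes did not agree on group 2 replicate 1, where they lay between -0.70 and 0.74 against the other arrays.

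Among genes of transcription, cell cycle and DNA repair, the signal transducer SMAD2 had 3 of 4 probes highest on group 2 replicate 1, and the probe with the highest signal was at 1.42, 1.26, 1.78 and 0.89. SKP2, which marks cell cycle inhibitors for breakdown, had all 3 probes highest there, between 0.40 and 0.53 above the other arrays. SUB1, a transcription coactivator, lay 0.12 to 1.04 above the other arrays over its 5 probes. These 3 genes stood at 1.33-fold, 1.40-fold and 1.44-fold over group 1. RAD17, of the DNA damage checkpoint, was highest on group 2 replicate 2 (-2.09, -1.92, -1.74 and -1.14), and LMNB1, a nuclear lamin, was similar on both group 2 arrays (-3.97, -3.78, -3.46 and -3.38). NFIB, a transcription factor, was nearly level at 3.50, 3.40, 3.47 and 3.21. DMRT1, the dosage-sensitive testis-determining gene of birds, was at -2.98, -3.23, -3.51 and -3.46, lower on both group 2 arrays, and its other probe was not well above background on any array.

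In the group of matrix, folding and traffic genes the median on group 2 replicate 1 against the other arrays was -0.09 over 4 genes. SNX2, a sorting nexin, had all 3 probes highest there, and the probe with the highest signal was at 2.37, 2.23, 2.50 and 1.68. DNAJA1, a co-chaperone of HSP70, was at 5.52, 5.31, 5.15 and 4.79. VCAN, a matrix proteoglycan, was at -2.44, -2.54, -2.69 and -2.52. All 4 genes were lower on group 2 replicate 2 than the mean of the other arrays, by 0.03 to 0.69. By functional list, the medians on group 2 replicate 1 were 1.01 for 4 enzymes and 0.35 for 9 genes of transcription, cell cycle and repair. For 5 receptors and signalling members the median there was -0.37, with 3 of the 5 below 0. These 3, PTCH1, NTRK2 and PRLR, were in the class with the lowest level, where the autosomal median was -0.27. VLDLR was in that class too and lay above 0, at 0.74. The PTCH1 probe and the PRLR probes A_87_P091776 and A_87_P129148 passed the filter on dim signals through group 1 alone. No difference by function is therefore drawn from this median.

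The other genes of chromosome Z had a larger median than the members. The 174 other Z-linked genes had a median of 0.48 on group 2 replicate 1 against the other arrays, with 136 (78.2%) above 0, and -0.09 on group 2 replicate 2. Against group 1 their medians were 0.59 and 0.03 on the same arrays. At least 0.32 log2 units above the other arrays on group 2 replicate 1 were 107 of them (61.5%), where 25.1% of autosomal genes were. The highest values on that array belonged to avidin (AVD, 3.44), the DNA polymerase POLK, which was not well above background on group 1 replicate 1, the cell cycle inhibitor CDKN2B (2.17) and the stress response gene GADD45G (2.14). C6 of complement (1.64), ARSK (1.55), MTX3 (1.52) followed, and then ZFAND5, at a fold of 2.84. AVD has Z-linked relatives in the gene table, AVDL and AVR2, so its values are uncertain: sharing of signal between them was not tested. The 8 named genes with the lowest signal against the other arrays there were mostly dim. NIM1K, the receptor ROR2, the peptide GRP and NRG1 had 1 kept probe each, which was not well above background on either group 2 array, so their order is not given. EMB had 1 of 3 probes well above background on group 2 replicate 1. HAPLN1 had 1 of 2 (-0.94), HABP4 had 2 of 4 (-1.34 and -1.10), and DEPDC1B (-0.93) was measured on all 4 arrays.

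Along the chromosome, the measured Z-linked genes were put in the order of the GRCg7b gene table and divided into 5 bins of 39 or 40 genes. On group 2 replicate 1 the medians from the first to the last bin were 0.15, 0.45, 0.50, 0.42 and 0.57, and 71.8% to 79.5% of genes in a bin lay above 0. The median was thus above 0 in each bin and lowest in the first, which runs from NARS to LIFR and holds 6 members, SMAD2, UBAP2, SUB1, AMACR, PRLR and SKP2. The bin medians of group 2 replicate 2 lay between -0.23 and -0.02. A region next to DMRT1 is known for a male hypermethylated locus and for compensation of nearby genes in females. Of the 10 table genes on each side of DMRT1, 5 were measured. Their values on group 2 replicate 1 differed, as the neighbours KANK1 (1.12), PUM3 (1.17), VLDLR (0.74) and CBWD1 (0.71) lay above the other arrays, SMARCA2 (-0.01) was level and DMRT1 itself (-0.29) lay below.

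**Figure D4:**
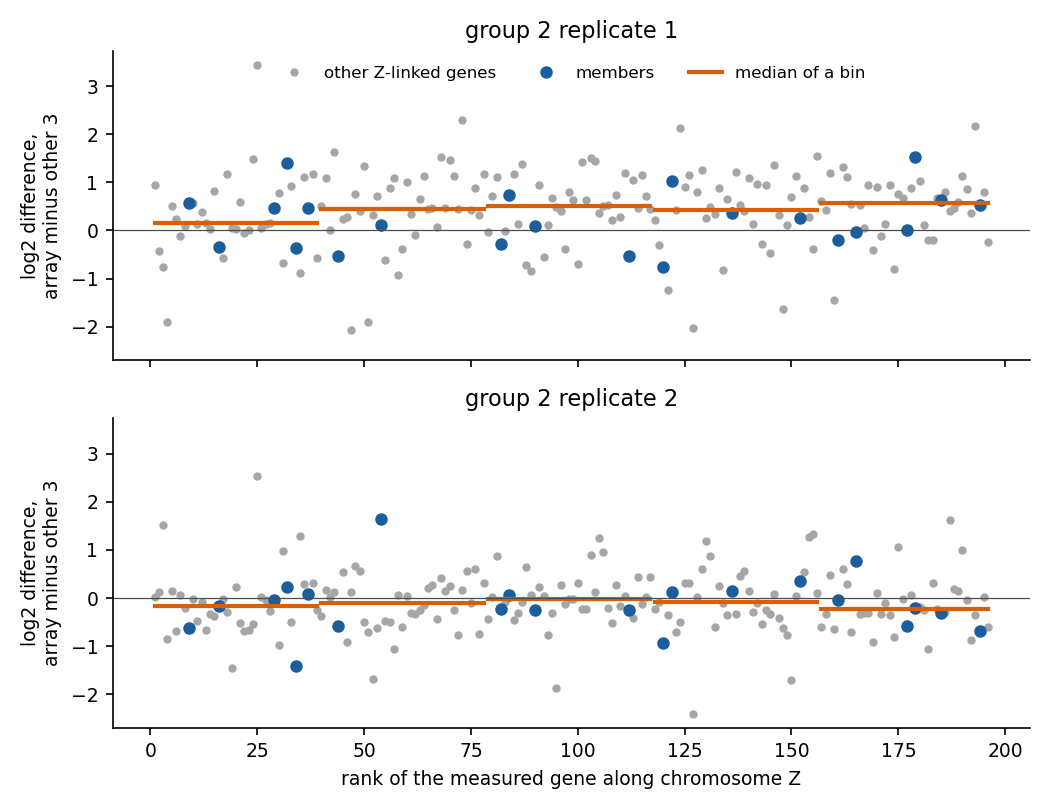
Log2 difference from the mean of the other 3 arrays for each measured Z-linked gene, by its rank along chromosome Z, on group 2 replicate 1 (top) and group 2 replicate 2 (bottom). Blue points are members, grey points other Z-linked genes, and orange lines the medians of 5 bins. The orange lines lie between 0.15 and 0.57 in the upper panel and between -0.23 and -0.02 in the lower one.

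The labelled comparison asks which genes differ between the feed efficiency groups. SPIN1, CHD1 and SUB1 had a probe that was lower in group 1, and PTCH1 had a probe that was higher (limma with Benjamini-Hochberg over 33868 probes, n = 2 arrays per group). Thus 3 of 23 measured members, HINTW included, had a probe called lower in group 1, where 6.83% of all named genes had one, and 1 had a probe called higher, where 9.03% of named genes had one. CHD1, SPIN1 and SUB1 had the most kept probes of the Z-linked members, 7, 6 and 5, and any of these sufficed for a call. Over all probes 7.4% were called higher and 3.82% lower. Before adjustment, 6 Z-linked members had a probe lower with p under 0.05 and 5 had one higher, beside 21.6% and 27.6% of autosomal genes. The median difference over the 22 Z-linked members was -0.10 log2 units (group 1 minus group 2), with 11 above and 11 below 0. It was -0.31 for the other Z-linked genes and 0.10 for autosomal genes. Against group 1 the other Z-linked genes stood at a median of 0.59 on group 2 replicate 1 and 0.03 on group 2 replicate 2. The members' median was 0.10 without group 2 replicate 1 and -0.34 without group 2 replicate 2, so its sign rested on the array that goes against its label. Over all probes the median difference was 0.18, and -0.03 with scaling on the array medians, which took the members' median to -0.31. The share of called probes that were higher was 65.9%, and 45.6% with that scaling.

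SPIN1 differed by -1.23 ± 0.20 (SE) on its probe with the highest signal (limma, adjusted p = 0.0364) and by -1.42 ± 0.25 on the probe A_87_P198643 (limma, adjusted p = 0.0392). The other 4 of its 6 probes had the same sign and did not pass. CHD1 differed by -1.30 ± 0.23 on the probe A_87_P092929 (limma, adjusted p = 0.0411), with 6 further probes between -0.61 and 0.75 that did not pass. SUB1 differed by -1.62 ± 0.23 on the probe A_87_P209703 (limma, adjusted p = 0.0310), which was at -3.86 and -3.47 in group 1 and at -2.08 and -2.02 in group 2, and its other 4 probes lay between -0.39 and 0.60. In each of these 3 genes most probes were not called. PTCH1 was higher in group 1 by at least 0.33 log2 units (limma, adjusted p = 0.0369), but its probe passed the filter on dim signals through group 1 alone and drops out where detection on all 4 arrays is asked for, so nothing is drawn from this call. For 1 gene and 4 arrays, the smallest two-sided p of an exact permutation test is 0.333. As the arrays hold pooled RNA and the spread within group 1 may be technical, the SE and p do not measure the spread between birds.

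**Figure D5:**
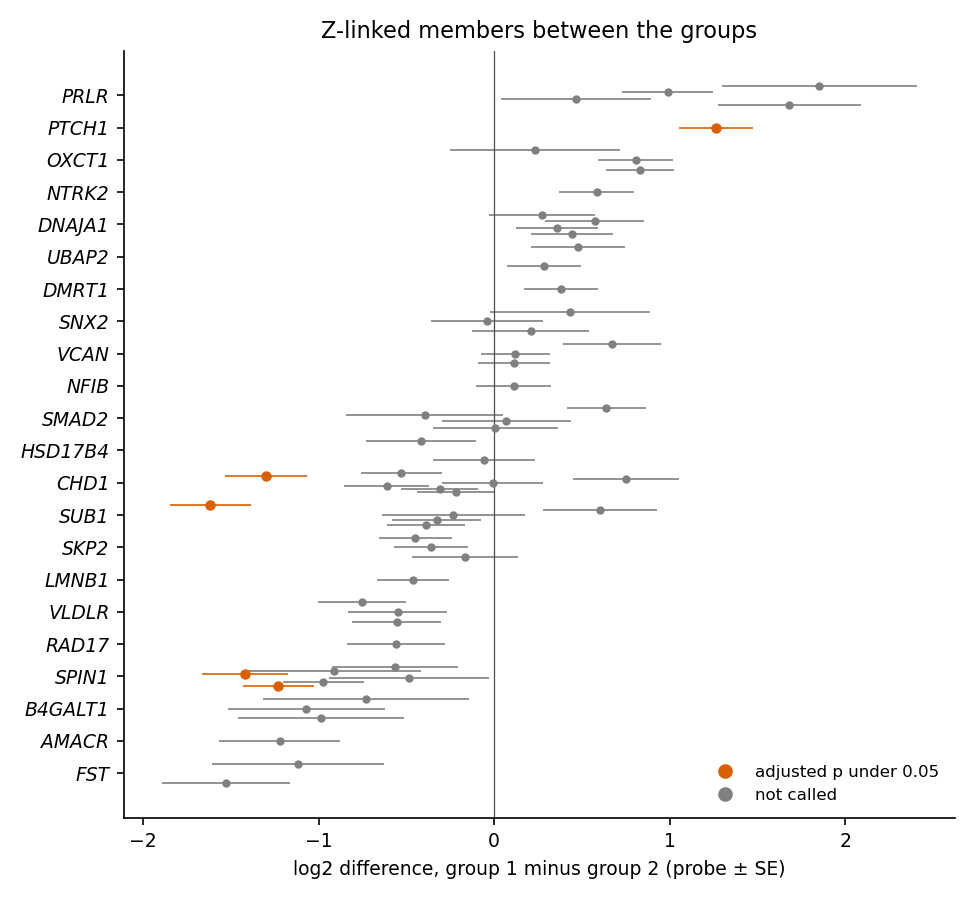
Log2 difference, group 1 minus group 2, with its SE for each of the 61 kept probes of the Z-linked members, n = 2 arrays per group. Orange marks the 5 probes with an adjusted p under 0.05, 1 of CHD1, 2 of SPIN1 and 1 of SUB1 below 0 and 1 of PTCH1 above 0.

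Other members came near the threshold without passing it. OXCT1 differed by 0.83 (limma, adjusted p = 0.0610), FST by -1.53 (0.0642), PRLR by 1.68 (0.0649) and AMACR by -1.22 (0.0854) on the probe with the highest signal. B4GALT1, far above group 1 on 1 of the group 2 arrays, differed by -0.99 ± 0.47 (limma, adjusted p = 0.210). HSD17B4 (-0.06) and SMAD2 (0.01) were close to 0 on that probe, and their group 2 arrays lay on opposite sides of group 1. By the median level over a gene's kept probes on each array, the groups did not overlap for 15 of the 22 Z-linked members, 8 with group 1 higher and 7 with group 2 higher, beside 38.1% and 29.6% of autosomal genes in these directions. PTCH1 and PRLR are among the 8. The PTCH1 probe and the PRLR probes A_87_P091776 and A_87_P129148 passed the filter on dim signals through group 1 alone. Nothing is drawn from the place of PTCH1 and PRLR in this count.

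The calls rested on which arrays were in the fit. Without group 2 replicate 1, 7 members had a probe called higher in group 1 (CHD1, OXCT1, PRLR, PTCH1, SMAD2, SNX2 and SUB1) and 4 a probe called lower (CHD1, FST, SPIN1 and SUB1), with CHD1 and SUB1 in both counts through different probes. Over all named genes 20.6% were called higher and 12.7% lower in that fit. Without group 2 replicate 2, 4 were called higher (HINTW, OXCT1, PRLR and PTCH1) and 8 lower (AMACR, B4GALT1, CHD1, FST, SMAD2, SPIN1, SUB1 and VLDLR), beside 20.2% and 15.2% of all named genes. In both of these fits CHD1, FST, SPIN1 and SUB1 had the same probe called lower in group 1, and OXCT1 and PRLR the same probe called higher. PTCH1 did as well, but its probe passed the filter on dim signals through group 1 alone, so nothing is drawn from it. Both fits use the same group 1 arrays, so they are not independent of each other. SMAD2 was called higher in one and lower in the other through different probes, A_87_P060141 and A_87_P193378. In such a fit the lone group 2 array is assumed to vary like the group 1 arrays. Without group 2 replicate 2 the lone array was the one singled out by HINTW itself, so nothing is drawn from the call of HINTW there. Without group 1 replicate 1 or group 1 replicate 2 no probe passed over the whole array (limma), while before adjustment 3042 and 3896 probes lay under 0.05 with group 1 higher, and 1604 and 2288 with group 1 lower.

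Of the other 174 Z-linked genes, 19 (10.9%) had a probe called lower in group 1 and 6 (3.45%) one called higher (limma), against 6.67% and 9.29% of autosomal genes. These counts include group 2 replicate 1, and counts without it are not given here. The median of these genes against group 1 was 0.59 on that array and 0.03 on group 2 replicate 2. No difference between the feed efficiency groups is therefore drawn from the counts. AVD differed by -4.62, ZFAND5, which binds ubiquitin, by -1.85 and the potassium channel KCNN2 by -1.60 in the median over their probes. Of the 6 genes called higher, 4 were called only through probes not well above background on either group 2 array (GRP, HAPLN1, ROR2 and MUSK, the last named after its values were seen). On such probes ROR2 was higher in group 1 by at least 1.53 log2 units and GRP by at least 0.23. HAPLN1, which links matrix proteoglycans, was higher on such a probe by at least 0.18. These probes passed the filter on dim signals through group 1 alone, so nothing is drawn from these 4 calls. AVD and KCNN2 were high on both group 2 arrays, with KCNN2 at 1.14 and 0.99 against the mean of the other 3 arrays.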

How the data were processed

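Liver RNA of 4 pooled samples was hybridised to a 1-colour Agilent array drawn on the build galGal3, per the file headers. The deposited scanner files hold an intensity per spot, background-subtracted by Agilent Feature Extraction 11.5.1.1 per the file headers. The deposited series table holds the authors' log2 values, and set against the scanner values it is the log2 intensity minus the 75th percentile of each array, centred per probe over the arrays (lowest r = 1). Its column medians were 0.08, 0.02, -0.09 and -0.02.

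Here log2 intensities were taken minus the 75th percentile of 43803 spots that are not controls (978, 1450, 1170 and 1278 intensity units). Outlier spots (25, 12, 8 and 13) were set to missing, none was saturated, and spots of a probe were averaged. Of 43603 probes, 33869 were kept and 33868 had enough values to test. RefSeq accessions named 11935 probes through a gene table of the assembly GRCg7b, used for names, chromosomes and gene order only. A gene took the median over its kept probes. The group test was that of limma 3.58.1 (R 4.3.3), with 2 residual and 2.60 prior degrees of freedom and Benjamini-Hochberg adjustment over all probes, at a threshold of 0.05. A gene was counted as called where any kept probe passed. The fit was tested on simulated data. A probe that neither array of a group measured well above background has a bound there, taken from the lowest signal that is. The number of arrays, 2 a group, limits the precision. The members, the lists and the tests were chosen with earlier results of these data known. Text names all measured members, the other W-linked genes, the 8 highest and 8 lowest other Z-linked genes on group 2 replicate 1 and the 6 with the largest called group difference, leaving out symbols without a gene name. Replicate numbers shared between groups did not mark pairs. The normexp alternative used the median spot signal, as no mean signal column was used here. Sequences of the probes and of the genes were not used here.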

Additional observations from a re-analysis of the deposited data

How the results depend on the processing

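Of 215 values recomputed under alternatives, 180 stayed within 1.5 times (counts) or 1 SD between replicates (medians), and 35 moved beyond that. The alternatives include the authors' values, which have the same scaling, and a run with outlier spots kept. Little could change under either, so their share of the unmoved values says little. The SD is wide, since the group 2 arrays lay far apart, so signs were also counted: 10 of 153 medians changed sign. Of these, 6 were the members' median on group 1 replicate 1 (0.05 as reported, -0.12 to -0.01), and 2 that of the other Z-linked genes on group 2 replicate 2 (-0.09, then 0.05 and 0.03). HINTW on group 2 replicate 2 went from 2.84 to -0.29 once group 2 replicate 1 left the reference, and the members' group difference from -0.10 to 0.10 without that array. Otherwise the cause was not tested.

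Probes called higher and lower in group 1 numbered 2506 and 1295. They numbered 1688 and 2012 with median scaling, 1574 and 1482 after quantile normalization, 2320 and 2285 with normexp and quantile normalization, 926 and 315 without the filter, and 3047 and 1969 with a trended prior. The share that was higher was 65.9%, then 45.6%, 51.5% and 50.4% under the first 3. With 1 array left out, probes ranged from 0 to 5847 higher and 0 to 3113 lower, and members from 0 to 7 higher and 0 to 8 lower, beside 1 and 3 as reported. Higher members numbered 0 after quantile normalization and with detection on all 4 arrays, and 2 with normexp, OXCT1 and PRLR in place of PTCH1. The trended prior gave OXCT1 in place of PTCH1 as higher and added FST to the lower members. Lower members numbered 1 with the brightest probe of each gene, SPIN1, and none was called without the filter in either direction (0 and 0). Adding the replicate block left 1698 and 725 probes, with 0 members higher and 1 lower, SUB1. Replicate numbers did not pair the arrays (correlation of within-group differences 0.03), so the block rests on a shared number only.

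The members' group median was -0.31 with median scaling and ranged from -0.34 to 0.10 with 1 array left out. On group 2 replicate 1 the members' median (0.19) and that of the other Z-linked genes (0.48) were 0.33 and 0.62 with median scaling, and ranged from 0.17 to 0.34 and from 0.47 to 0.59 with an array left out of the reference. HINTW there, at -9.43 with the dim probe as measured, was -8.29 with normexp and -9.12 with detection on all 4 arrays. At 0.58 in place of 0.32 log2 units, 5 members in place of 10 stood above on group 2 replicate 1 and 2 in place of 6 on group 1 replicate 1.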
